A study of Rattus norvegicus with 12 samples.

Results

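Bile acid synthesis, represented by 10 genes, was followed in the livers of rats fed wakame, an edible brown seaweed. The genes were those of the enzymes Cyp7a1, Hsd3b7, Cyp8b1, Akr1d1, Cyp27a1, Cyp7b1, Acox2, Slc27a5 and Baat, and Nr0b2, which encodes the repressor SHP. A gene was included by name, and a probe set, which is a group of short probes aimed at one transcript, stood for it where the platform annotation gave that gene as its only symbol. The 10 members had 11 probe sets of the 31042 that are not manufacturer controls, and the single symbols on the array stood for 14218 genes in all. A probe set whose standard deviation (SD) over the 12 arrays was at most 0.01 counted as unmeasured, which left 3240 varying probe sets and 9 of the 10 members.

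Male rats of the Sprague Dawley strain had eaten their diets for 28 days and had reached an age of 9 weeks. The control group ate a purified AIN-93G diet, the low group the same diet with 0.1% wakame powder, and the high group the same diet with 1% wakame powder. All 3 diets shared the purified base, and the labels name no allele or drug. Liver RNA of 4 rats of each diet was measured, with 1 Affymetrix array a rat and the rats numbered as in the labels. Per the series' design text a diet had 6 rats, with 3 sharing a cage, and effects of cage and of diet cannot be told apart.

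Bile acids are made from cholesterol in hepatocytes. In the classic route Cyp7a1 adds a hydroxyl group to the sterol ring and sets the pace of the pathway, whereas the alternative route starts on the side chain with Cyp27a1 and continues with Cyp7b1. Hsd3b7, Cyp8b1 and Akr1d1 modify the ring, peroxisomal enzymes such as Acox2 shorten the side chain, and Slc27a5 and Baat join the product to taurine or glycine. Bile acids returning to the liver activate the receptor FXR, which induces SHP, and SHP represses Cyp7a1 and Cyp8b1 through the nuclear receptor LRH-1 (Nr5a2).

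The tissue label was checked against marker genes. Albumin (Alb) had a signal of 14.61 on the log2 scale, the highest of the array, and transthyretin (Ttr) lay at 13.96, although both probe sets were flat across the arrays. The 4 cholangiocyte markers on the array (Krt19, Krt7, Epcam and Spp1) were flat at 6.05 to 7.36, so the amount of bile duct RNA could not be compared between diets. In whole liver, fewer cells of a type and less RNA per cell cannot be told apart. Array medians were all 6.59, and values ran from 3.15 to 14.6. Since 89.6% of the probe sets that are not controls were flat, the medians could hardly differ and say little about how alike the arrays were. Arrays of one diet correlated at r = 0.911 to 0.961 over the varying probe sets. The difference between the 3-prime and 5-prime control probe sets of Gapdh, a measure of how complete the copied RNA was, was 1.05 ± 0.014 in the control group, 1.08 ± 0.099 with 0.1% and 1.21 ± 0.16 with 1% wakame (SD, n = 4).

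SHP RNA and 3 of the enzymes, Cyp7a1, Cyp27a1 and Acox2, were the members with the largest differences from control relative to their errors. Mean SHP signal was 3.81-fold higher than control at 0.1% wakame and 2.81-fold higher at 1%, and Cyp7a1 was 2.80-fold higher at 0.1% and 1.24-fold higher at 1%. None of the members passed an adjusted p under 0.05 in any comparison, where the p-values of limma, a linear model with moderated variances, were adjusted by the Benjamini-Hochberg method over all 3240 varying probe sets. Because both wakame groups were set against the same 4 control arrays, their differences from control are not separate pieces of evidence.

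At 1% wakame against control, 7 members lay higher and 2 lower, with a median difference of 0.31 log2 against −0.02 over all varying probe sets. An adjusted p under 0.05 was reached by 0 of the 9 members and by 54 of the 3240 varying probe sets (1.67%). Over all varying probe sets that count was 13, 8, 33 and 9 without control 1 to 4 in turn and 36, 7, 34 and 11 without high 1 to 4, while the members' count stayed at 0. An unadjusted p under 0.05 was reached by 3 members (Cyp27a1, Acox2 and Nr0b2), beside 18.5% of all varying probe sets. The values of the 2 diets did not overlap for 1 member, Cyp27a1, beside 11.3% of all.

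At 0.1% wakame against control, again 7 members lay higher and 2 lower, with a median of 0.27 log2 against −0.02 over all. Of the 9 members 0 had an adjusted p under 0.05, and 2 of the 3240 varying probe sets did (0.0617%), or 0 to 3 of them with 1 array left out. The unadjusted p was under 0.05 in 4 members (Nr0b2, Cyp7a1, Acox2 and Cyp27a1), beside 11.5% of all. The groups did not overlap for 1 member, Cyp7a1, beside 5.86% of all varying probe sets.

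Between the wakame diets, 4 members lay higher and 5 lower at 1% than at 0.1%, with a median of −0.0041 log2. In that comparison 0 members and 0 of the 3240 varying probe sets (0%) had an adjusted p under 0.05, 0 members and 6.76% of all had an unadjusted p under 0.05, and 0 members and 3.77% of all had groups that did not overlap. In limma's F-test for any difference among the 3 diets, 0 members and 0.185% of all passed after adjustment. Without adjustment 3 members (Nr0b2, Cyp27a1 and Acox2) and 14.2% of all did. An exact permutation test of each pair of diets cannot give a p below 0.0286, a value that no member could carry past adjustment. That smallest p was reached by Cyp27a1 at 1% and by Cyp7a1 at 0.1% wakame.

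**Figure D1:**
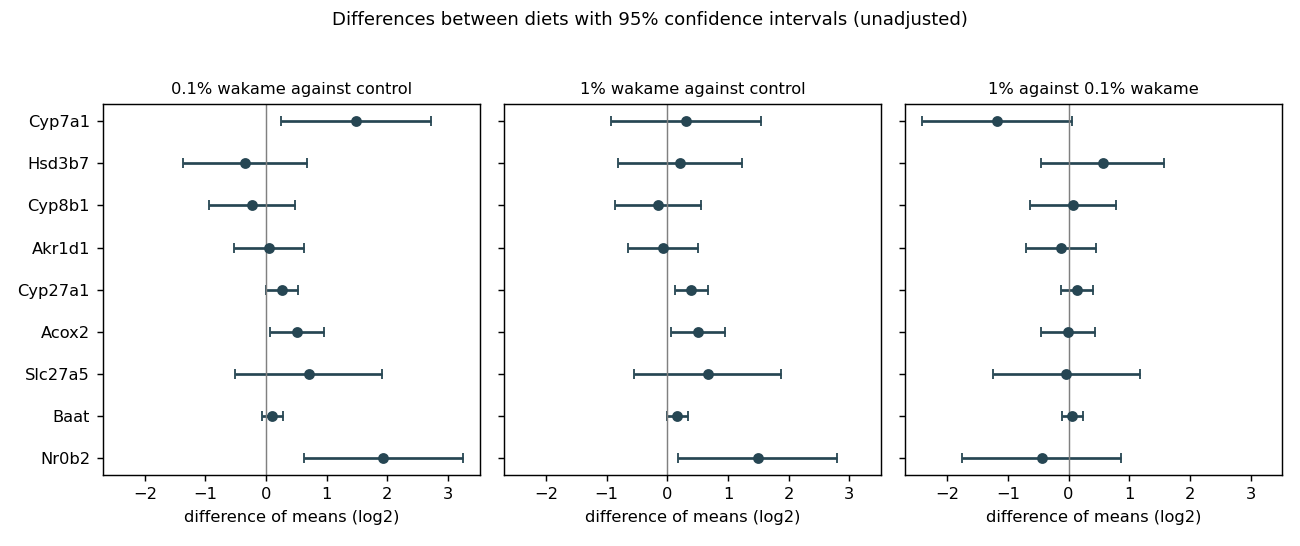
Each point is the difference of mean log2 signal between 2 diets for 1 gene (n = 4 arrays per diet) and each bar its unadjusted 95% confidence interval from limma. Against control the points of Nr0b2 lie farthest to the right, at 1.93 for 0.1% and 1.49 for 1% wakame, and in the right panel every interval includes 0.

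Cyp7a1, the cholesterol 7alpha-hydroxylase and rate-limiting enzyme of the classic route, was highest on the low diet. Its log2 signal was 6.00, 7.42, 7.57 and 7.27 in control rats 1 to 4, and 8.74, 8.00, 9.04 and 8.43 in the low rats. In the high rats it was 7.23, 5.76, 7.97 and 8.55. All 4 low livers lay above all 4 control livers, while the high livers spread from below the lowest control to above the second lowest of the low group. The difference was 1.49 ± 0.56 log2 at 0.1% wakame (SE, 95% confidence interval 0.25 to 2.72, unadjusted p = 0.0227, adjusted p = 0.357, limma). At 1% wakame it was 0.31 ± 0.56 (−0.92 to 1.55, adjusted p = 0.835), and without high 2 it was 0.85, without high 4 −0.08.

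Set directly against each other, the wakame diets differed in Cyp7a1 by −1.18 ± 0.56 log2 for 1% against 0.1% (−2.41 to 0.059, unadjusted p = 0.0599, adjusted p = 0.748, limma). In all, 3 of the 4 high livers lay below all low livers, and without high 2 the difference was −0.64. In ascending order the diet means were those of control, high and low, and the neighbours control and high, at 7.07 ± 0.72 and 7.38 ± 1.21 (SD, n = 4), did not differ beyond their spread. With the Gapdh 3-prime to 5-prime difference as a covariate, Cyp7a1 stood at 1.26 ± 0.47 for 1% wakame against control (adjusted p = 0.313) and at −0.39 ± 0.44 for 1% against 0.1%. The part of RNA completeness in the Cyp7a1 values beyond that fit was not tested.

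Of the ring-modifying enzymes that act after Cyp7a1, 0 of 3 had an unadjusted p under 0.05 in any comparison. Cyp8b1, the sterol 12alpha-hydroxylase that fixes the share of cholic acid, had log2 signals of 10.82, 9.78, 10.71 and 10.44 in control, 10.56, 10.50, 9.57 and 10.19 in low, and 9.69, 10.68, 10.80 and 9.96 in high livers. The groups overlapped over nearly their whole range, and every diet held livers on both sides of the overall mean of 10.31. The difference from control was −0.23 ± 0.32 at 0.1% (−0.95 to 0.48, adjusted p = 0.839, limma) and −0.16 ± 0.32 at 1% wakame (−0.87 to 0.56, adjusted p = 0.868). With 1 array left out the 0.1% value ran from −0.45 (without control 2) to −0.023 (without low 3).

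Hsd3b7, the 3beta-hydroxysteroid dehydrogenase that follows the hydroxylation of the ring, read 9.62, 10.86, 11.37 and 9.72 in control livers. It read 10.72, 10.23, 9.55 and 9.67 in low and 10.01, 11.50, 10.22 and 10.68 in high livers. Within each diet single livers were more than 1 log2 unit apart, and the ranges of the diets overlapped. The differences from control were −0.35 ± 0.46 (−1.37 to 0.67) at 0.1% and 0.21 ± 0.46 (−0.81 to 1.23) at 1% wakame, with adjusted p = 0.827 and 0.879 (limma). With 1 array left out the 0.1% value ran from −0.61 (without control 1) to −0.022 (without control 3).

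Akr1d1, the 5beta-reductase that bends the sterol ring into its bile acid shape, had a pair of probe sets. The brighter gave 10.27, 9.47, 9.39 and 10.26 in control, 9.94, 10.11, 9.89 and 9.66 in low, and 10.02, 9.77, 9.15 and 10.18 in high livers. The control livers formed a high and a low pair, and the low livers lay between them. Differences from control were 0.051 ± 0.26 (−0.53 to 0.63) at 0.1% and −0.069 ± 0.26 (−0.65 to 0.51) at 1% wakame. The dimmer probe set gave 0.29 ± 0.28 and −0.12 ± 0.28, and over the 12 arrays the pair correlated at r = 0.673 (permutation p = 0.0173) and rho = 0.636 (permutation p = 0.0303).

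**Figure D2:**
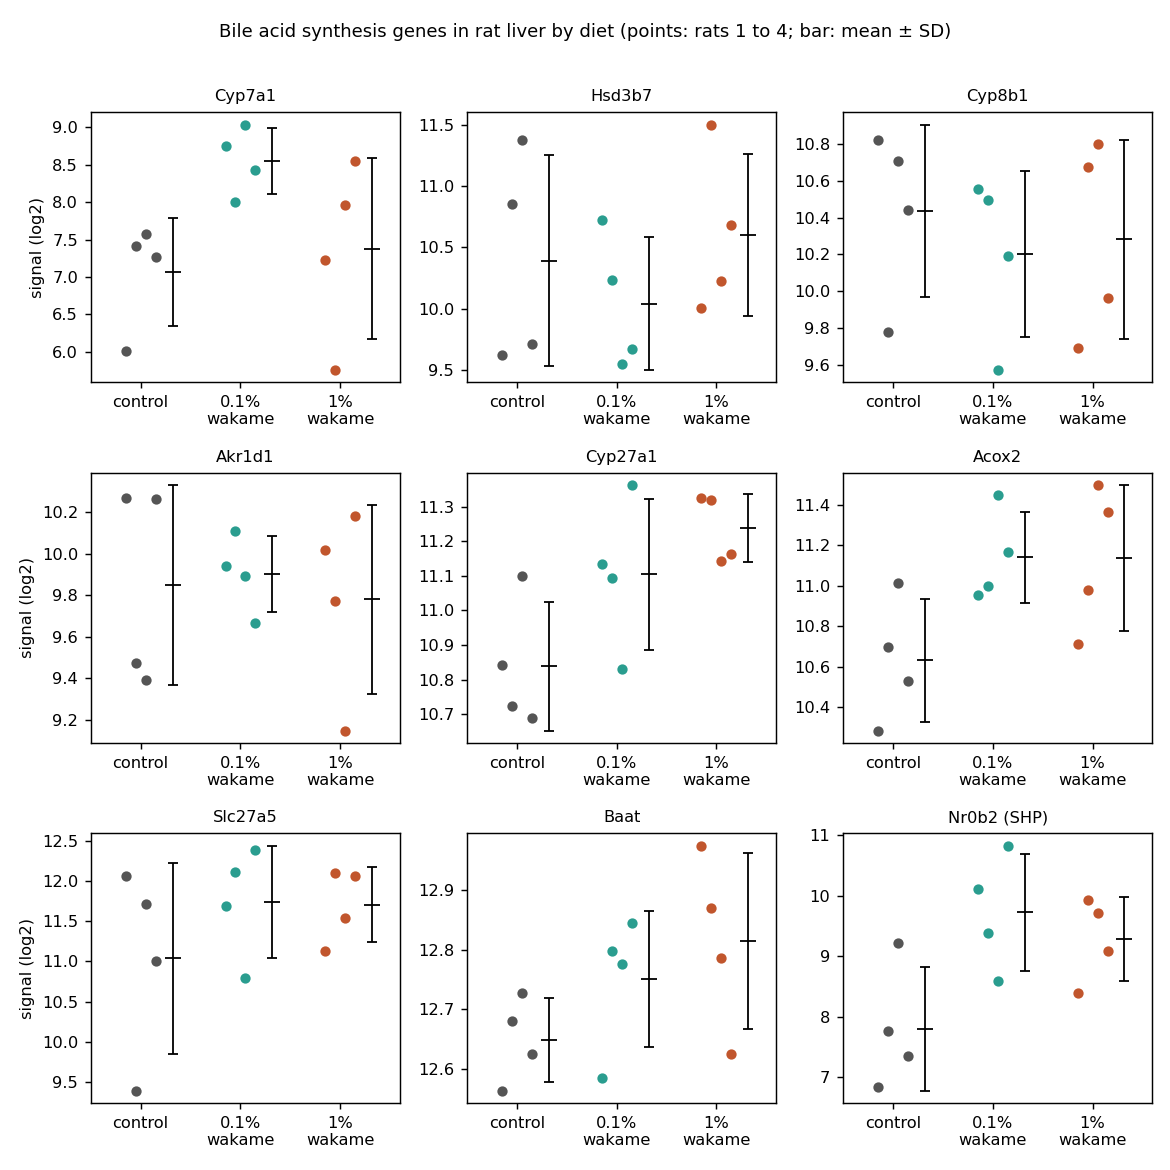
Each panel shows 1 gene, with the log2 signal on the vertical axis (each panel has its own scale), a point for each of the 4 rats of a diet and a bar for the mean ± SD beside them. The low livers of Cyp7a1 (8.00 to 9.04) and the high livers of Cyp27a1 (11.14 to 11.33) lie above all control livers of the same gene, while the groups of Cyp8b1, Hsd3b7 and Akr1d1 overlap.

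Cyp27a1, the mitochondrial sterol hydroxylase that opens the alternative route and also oxidises the side chain in the classic one, differed little between livers. It gave 10.84, 10.72, 11.10 and 10.69 in control, 11.13, 11.09, 10.83 and 11.36 in low, and 11.33, 11.32, 11.14 and 11.16 in high livers. All 4 high livers lay above all control livers, the gap to control 3 being the smallest, and 2 of the low livers also did. At 1% wakame the difference was 0.40 ± 0.12 log2 (0.13 to 0.66, 1.32-fold, unadjusted p = 0.00703, adjusted p = 0.123, limma), and at 0.1% it was 0.27 ± 0.12 (0.0014 to 0.53, unadjusted p = 0.0490, adjusted p = 0.434). With each array left out in turn, the 1% difference stayed between 0.35 and 0.49 and its adjusted p between 0.0670 and 0.278. With the Gapdh difference as a covariate it was 0.28 ± 0.14 (adjusted p = 0.486).

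Cyp7b1, the oxysterol 7alpha-hydroxylase of the alternative route, was the unmeasured member. Its only probe set stood at 5.94 on every array, below the array median of 6.59, and gives no evidence on whether the RNA differed.

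Acox2, the peroxisomal oxidase that begins the shortening of the side chain, had log2 signals of 10.28, 10.70, 11.01 and 10.53 in control, 10.95, 11.00, 11.45 and 11.17 in low, and 10.71, 10.98, 11.50 and 11.37 in high livers. The wakame groups shared a mean of 11.14 against 10.63 in control, and control 3 alone reached into the lower part of both. The difference was 0.51 ± 0.20 at 0.1% (0.067 to 0.96, unadjusted p = 0.0280, adjusted p = 0.370, limma) and 0.51 ± 0.20 at 1% wakame (0.063 to 0.95, unadjusted p = 0.0290, adjusted p = 0.215). Between the wakame diets the interval of the difference ran from −0.45 to 0.44.

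Conjugation takes a ligase and a transferase. Slc27a5, the bile acid CoA ligase, read 12.06, 9.38, 11.72 and 11.00 in control, 11.69, 12.12, 10.79 and 12.38 in low, and 11.13, 12.09, 11.54 and 12.07 in high livers. Control 2 lay far below every other liver, and the other 3 control livers fell within the range of the wakame livers. The differences from control, 0.70 ± 0.55 (−0.51 to 1.92) at 0.1% and 0.67 ± 0.55 (−0.55 to 1.88) at 1%, shrank to 0.15 and 0.11 without control 2.

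Baat, the transferase that joins the bile acid CoA ester to taurine or glycine, varied least of the members. It read 12.56, 12.68, 12.73 and 12.62 in control, 12.58, 12.80, 12.78 and 12.84 in low, and 12.97, 12.87, 12.79 and 12.63 in high livers. Of each wakame group, 3 livers lay above all controls and 1 lay among them. The difference was 0.10 ± 0.079 (−0.073 to 0.28, adjusted p = 0.689) at 0.1% and 0.17 ± 0.079 (−0.0098 to 0.34, unadjusted p = 0.0618, adjusted p = 0.294) at 1% wakame (limma).

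Nr0b2, whose product SHP lacks a DNA-binding domain and silences other nuclear receptors, had the widest range of the members. It read 6.83, 7.77, 9.21 and 7.35 in control livers and 10.11, 9.38, 8.58 and 10.83 in low livers. High livers gave 8.38, 9.93, 9.72 and 9.09. Control 3 lay among the wakame livers. The other 3 controls lay below all 8 wakame livers. In all, 3 of the 4 low and 2 of the 4 high livers were above every control.

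The SHP difference was 1.93 ± 0.59 log2 at 0.1% wakame (0.62 to 3.24, unadjusted p = 0.00808, adjusted p = 0.231, limma) and 1.49 ± 0.59 at 1% (0.18 to 2.80, unadjusted p = 0.0298, adjusted p = 0.220). For 1% against 0.1% it was −0.44 ± 0.59 (−1.76 to 0.87). With each array left out in turn, the differences from control stayed between 1.56 and 2.40 at 0.1% and between 1.17 and 1.96 at 1%. With the Gapdh covariate they were 1.84 ± 0.58 at 0.1% and 0.99 ± 0.71 at 1%, the latter with unadjusted p = 0.192 and adjusted p = 0.671 (limma).

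Spread between rats of one diet differed widely within the pathway. The pooled SD within diets was 0.906 log2 for Nr0b2, 0.852 for Cyp7a1, 0.839 for Slc27a5 and 0.702 for Hsd3b7. These 4 lay at or above the 93.1 percentile of all 3240 varying probe sets, whose median was 0.206. Cyp8b1 (0.489), Akr1d1 (0.396) and Acox2 (0.303) also lay above the median, and Cyp27a1 (0.175) and Baat (0.115) below the median. Over the 12 livers the signal of Nr0b2 spanned 16.0-fold and that of Cyp7a1 9.74-fold, beside 1.60-fold for Cyp27a1 and 1.33-fold for Baat. The differences that can be seen with 4 rats a diet were thus smaller for Cyp27a1 and Baat (SE 0.12 and 0.079) than for SHP and Cyp7a1 (SE 0.59 and 0.56).

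**Figure D3:**
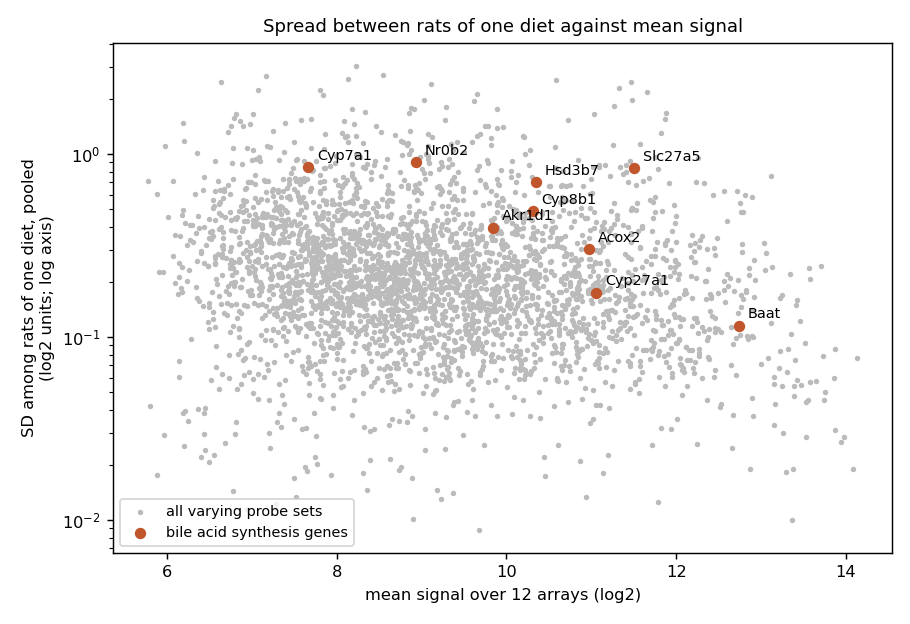
Mean log2 signal over the 12 arrays (horizontal axis) is plotted against the pooled SD among rats of one diet (vertical log axis) for the 3240 varying probe sets in grey and the 9 measured genes in orange. Nr0b2, Cyp7a1 and Slc27a5 lie near the top of the cloud, at SDs of 0.906, 0.852 and 0.839, and Cyp27a1 and Baat lie in its lower part.

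SHP was then compared with each of the 8 measured enzymes across the 12 livers, since its protein represses Cyp7a1 and Cyp8b1. Cyp7a1 correlated with Nr0b2 at r = 0.409 (permutation p = 0.187, adjusted over the 8 relations p = 0.253) and rho = 0.406 (permutation p = 0.194, adjusted p = 0.258). Within diets r was 0.746 (control), −0.334 (low) and −0.355 (high, n = 4 each). Subtracting the diet means gave r = 0.046, and leaving out control 1 and control 4, the arrays farthest from the Nr0b2 median, gave 0.077. Cyp8b1 correlated at r = 0.150 (permutation p = 0.637, adjusted p = 0.637) and rho = 0.182 (permutation p = 0.572, adjusted p = 0.572). Its r within diets was 0.020, 0.568 and 0.953, with diet means subtracted 0.464, and without those 2 arrays 0.644. Neither repressed target showed an inverse relation to SHP RNA over the 12 livers.

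Cyp27a1 was the enzyme with the highest correlation to SHP RNA, at r = 0.779 (permutation p = 0.00287, adjusted p = 0.0230) and rho = 0.650 (permutation p = 0.0252, adjusted p = 0.157). Its r within diets was 0.763 (control), 0.971 (low) and −0.251 (high). With 4 livers a diet, none of these r can show whether the relation held within a diet. In the high livers Cyp27a1 spanned only 0.18 log2. With the diet means subtracted r was 0.698 (permutation p = 0.0364, adjusted p = 0.121), and without control 1 and control 4 it was 0.675 (permutation p = 0.0325, adjusted p = 0.127). In both of these the sign was kept and the adjusted p was no longer under 0.05, the latter with 10 arrays in place of 12.

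For the other 5 enzymes no r passed after adjustment over all 12 livers. Acox2 stood at r = 0.676 (permutation p = 0.0164, adjusted p = 0.0655) and rho = 0.566 (permutation p = 0.0587, adjusted p = 0.157), and at r = 0.318 without control 1 and control 4. Baat stood at r = 0.405 (permutation p = 0.189, adjusted p = 0.253) and rho = 0.420 (permutation p = 0.175, adjusted p = 0.258), and at r = 0.018 without those 2 arrays. Hsd3b7 stood at r = 0.326 (permutation p = 0.299, adjusted p = 0.342) and rho = 0.336 (permutation p = 0.286, adjusted p = 0.327), and at r = −0.022 without them. Akr1d1 alone had a negative r, −0.430 (permutation p = 0.163, adjusted p = 0.253), with rho = −0.503 (permutation p = 0.0997, adjusted p = 0.199), and its r was below 0 within each of the 3 diets. It stood at r = −0.065 without control 1 and control 4 and at −0.239 with the mean of its probe sets. Slc27a5 stood at r = 0.503 (permutation p = 0.0944, adjusted p = 0.252) and rho = 0.573 (permutation p = 0.0548, adjusted p = 0.157). Slc27a5 reached r = 0.820 without control 1 and control 4 (permutation p = 0.00192, adjusted p = 0.0154), with rho = 0.721 (adjusted p = 0.195). With diet means subtracted r was 0.389 for Acox2, 0.124 for Baat, 0.649 for Hsd3b7, −0.652 for Akr1d1 and 0.337 for Slc27a5. The permutation p was 0.0455 for Hsd3b7, 0.0270 for Akr1d1 and 0.390 for Slc27a5, with adjusted p = 0.121, 0.121 and 0.520. The rho of Hsd3b7 was then 0.741 (permutation p = 0.0158, adjusted p = 0.126).

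**Figure D4:**
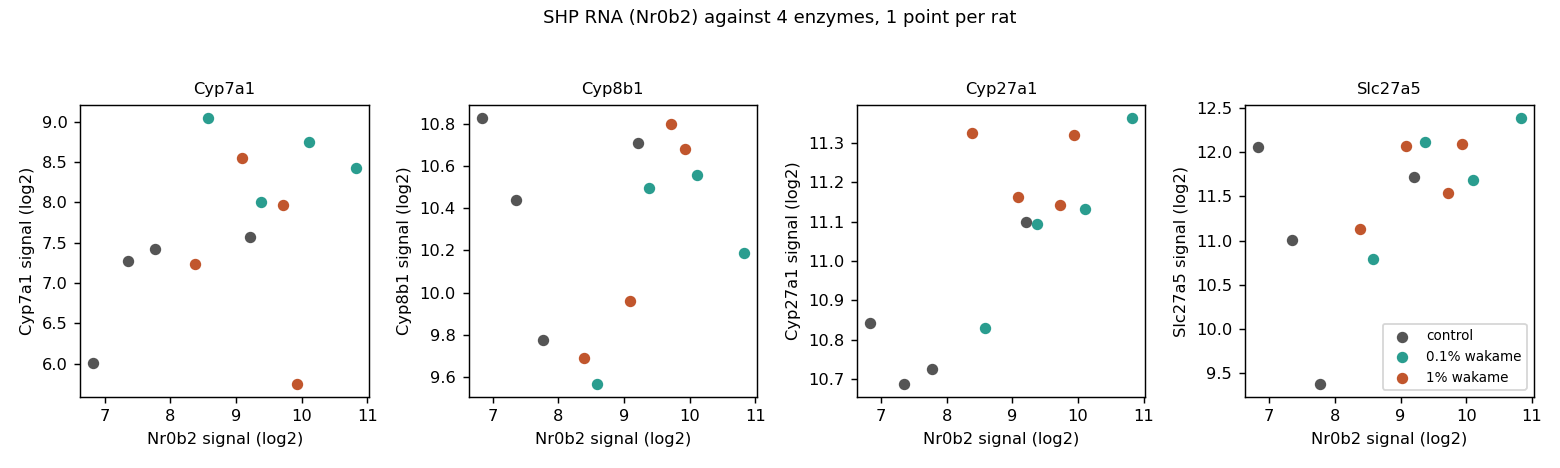
Log2 signal of Nr0b2 (horizontal axis) is plotted against that of Cyp7a1, Cyp8b1, Cyp27a1 and Slc27a5 (vertical axes), with 1 point per rat coloured by diet. Cyp27a1 lies higher where Nr0b2 is higher over the 12 points (r = 0.779), while Cyp7a1 (r = 0.409) and Cyp8b1 (r = 0.150) scatter widely.

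The 250 bases before the start of each member with a promoter sequence were searched for the extended half-site of Nr5a2. RefSeq promoters of the rat assembly GRCr8 were at hand for 7 of the 10 members, those of Cyp7a1, Cyp7b1 and Akr1d1 being not used here. The half-site was searched as CAAGGTCA or CAAGGCCA on both strands and occurs in 3.17% of the 33469 promoter windows of that length (1.33% and 1.86% for each spelling). In addition AGGTCA (14.1% of windows, overlapping the former), the bZIP motif TTATGTAA (0.828%) and TATAAA (12.9%) were searched. The windows of Nr0b2, at chr5:151062910-151063159 on the plus strand, and of Cyp27a1, at chr9:83713282-83713531 on the plus strand, are printed 5′ to 3′ because they held the Nr5a2 half-site, with capitals marking that half-site and, in Nr0b2, TATAAA.
Nr0b2: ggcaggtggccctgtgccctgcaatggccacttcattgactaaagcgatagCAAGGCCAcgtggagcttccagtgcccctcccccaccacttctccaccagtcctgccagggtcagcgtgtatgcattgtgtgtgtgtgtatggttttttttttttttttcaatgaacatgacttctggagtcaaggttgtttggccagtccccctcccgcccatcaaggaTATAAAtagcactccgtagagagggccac
Cyp27a1: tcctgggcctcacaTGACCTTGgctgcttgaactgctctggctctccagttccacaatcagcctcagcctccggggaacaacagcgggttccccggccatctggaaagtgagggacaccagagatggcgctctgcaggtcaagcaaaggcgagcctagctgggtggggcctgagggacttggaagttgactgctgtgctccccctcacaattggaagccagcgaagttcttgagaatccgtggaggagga

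In the Nr0b2 window CAAGGCCA lies 199 to 192 bases before the start and TATAAA 29 to 24 bases before it. The Cyp27a1 window reads TGACCTTG, the reverse strand of CAAGGTCA, 236 to 229 bases before the start, and holds a separate AGGTCA at 115 to 110 bases. The windows of the other members searched held none of these motifs. A match of letters is a description of a window and does not show that a factor binds there.

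The regulators of the pathway were taken as a list of 24 genes, of which 22 were on the array and 15 varied. At 1% wakame against control 10 lay higher and 5 lower (median 0.076), 2 rose, 1 fell (beside 1.67% of all varying probe sets called) and 9 had an unadjusted p under 0.05 (beside 18.5%). At 0.1% wakame 9 lay higher and 6 lower (median 0.21), 0 passed and 6 had an unadjusted p under 0.05, beside 0.0617% and 11.5% of all. Since this list was chosen with earlier results of these data known, its counts beside those shares are descriptions and not a test. The FXR gene Nr1h4 stood at 0.03 ± 0.17 (adjusted p = 0.960) and Hnf4a, an activator of Cyp7a1 and Cyp8b1, at 0.08 ± 0.091 (adjusted p = 0.721) for 1% against control.

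Nr5a2, the LRH-1 receptor through which SHP acts, rose at 1% wakame. Its brightest probe set gave 9.08, 8.87, 8.90 and 8.75 in control, 8.85, 8.97, 9.30 and 9.34 in low, and 9.71, 9.40, 9.41 and 9.47 in high livers. All high livers lay above all others, and the low livers fell into 2 within and 2 above the control range. The difference was 0.60 ± 0.13 at 1% wakame (adjusted p = 0.0486, limma) and 0.21 ± 0.13 at 0.1% (adjusted p = 0.567). The call is a narrow one, since it was lost in 8 of 8 fits that left out 1 array (adjusted p = 0.0678 to 0.129). A second Nr5a2 probe set stood at 0.066 ± 0.068 (adjusted p = 0.662), and a further one was flat.

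Nr1d1, the clock repressor REV-ERBalpha, which is known to act on Nr0b2 and on Cyp7a1, had 6.35, 6.48, 6.91 and 6.31 in control, 7.28, 7.24, 7.78 and 8.60 in low and 8.47, 9.21, 8.04 and 8.26 in high livers. Every wakame liver lay above every control, and the control values lay around the array median of 6.59, with no background value at hand to judge them by. It rose by 1.98 ± 0.33 at 1% wakame (adjusted p = 0.0262, limma), a call that held in 3 of 8 fits without 1 array, those without control 3, high 1 or high 3 (adjusted p = 0.0294 to 0.0761 over the 8), and at 0.1% it stood at 1.21 ± 0.33 (adjusted p = 0.196). The hour at which livers were taken is not given in the sources used here, and the part of Nr1d1 in the members' values was not tested.

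Onecut1, the hepatocyte factor HNF6 and an activator of Cyp7a1, ran the other way. It gave 10.97, 11.07, 10.91 and 12.23 in control, 9.82, 10.53, 8.63 and 9.18 in low, and 9.48, 7.66, 7.23 and 8.15 in high livers. All wakame livers lay below all controls. It fell by 3.17 ± 0.54 on the log2 scale at 1% wakame (adjusted p = 0.0268, limma) and passed in the same 3 of 8 fits without 1 array (adjusted p = 0.00945 to 0.113 over the 8), and at 0.1% it stood at −1.75 ± 0.54 (adjusted p = 0.231). Its other probe set fell by 2.10 at 1% wakame (adjusted p = 0.0262).

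With the Gapdh covariate the differences of Nr5a2, Nr1d1 and Onecut1 at 1% wakame were 0.68 ± 0.15, 1.73 ± 0.39 and −3.27 ± 0.69, similar in size to those above and with larger errors, and their adjusted p were 0.166, 0.166 and 0.154. The calls were also lost, with the differences as they were, in the fit of all probe sets (adjusted p = 0.258, 0.227 and 0.229). The exact permutation test, which cannot reach 0.05 after adjustment here, gave adjusted p = 0.254 for each.

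**Figure D5:**
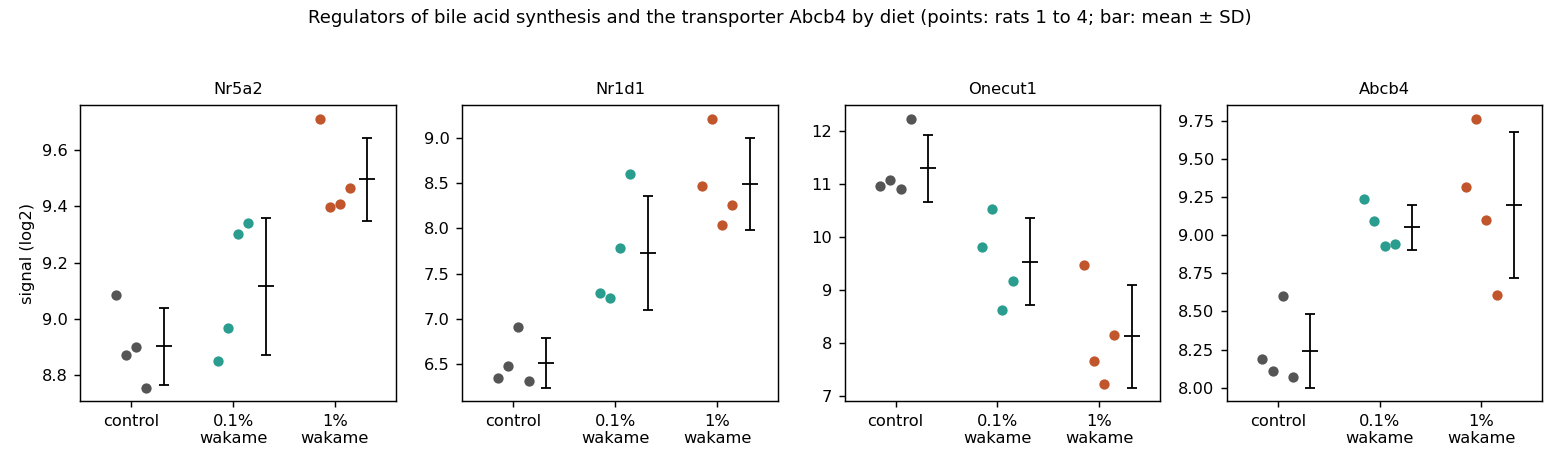
Log2 signal (vertical axes, a separate scale in each panel) is shown for Nr5a2, Nr1d1, Onecut1 and the transporter Abcb4, with a point for each of the 4 rats of a diet and a bar for the mean ± SD. The high livers lie above all controls for Nr5a2, Nr1d1 and Abcb4 and below all controls for Onecut1, with means of 9.50, 8.50, 9.20 and 8.13 against 8.90, 6.51, 8.24 and 11.30.

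Of 12 genes of bile acid transport, 11 were on the array and 7 varied. At 1% wakame 6 lay higher and 1 lower (median 0.22), 0 passed and 4 had an unadjusted p under 0.05, beside 1.67% and 18.5% of all varying probe sets. At 0.1% wakame 6 lay higher and 1 lower (median 0.13), 0 passed and 1 had an unadjusted p under 0.05, beside 0.0617% and 11.5% of all. Abcb4, the phospholipid flippase of the bile canaliculus and an FXR target, was at 8.19, 8.11, 8.60 and 8.07 in control, 9.24, 9.09, 8.93 and 8.94 in low, and 9.32, 9.76, 9.10 and 8.61 in high livers. Every wakame liver lay above every control, though high 4 (8.61) only just cleared control 3 (8.60). Groups without overlap made up 11.3% of all varying probe sets at 1% and 5.86% at 0.1%. The difference of the Abcb4 means was 0.96 ± 0.21 at 1% (adjusted p = 0.0579, limma) and 0.81 ± 0.21 at 0.1% (adjusted p = 0.196). The uptake transporter Slco1a4 stood at 1.06 ± 0.33 at 1% wakame (adjusted p = 0.131).

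Of 14 further genes of side-chain oxidation, hydroxylation and conjugation, 13 were on the array and 7 varied. With 4 higher and 3 lower at 1% wakame (median 0.048), 0 passed and 0 had an unadjusted p under 0.05, beside the same 1.67% and 18.5%. The racemase Amacr, which acts just before Acox2, stood at 0.56 ± 0.27 (adjusted p = 0.289), and Slc27a2, which activates the same sterol acids in peroxisomes and the endoplasmic reticulum, at 0.06 ± 0.047 (adjusted p = 0.511). Of 16 genes of cholesterol supply and storage, 10 were on the array and 4 varied, 2 of them higher and 2 lower (median 0.045) with 0 passing and 1 at an unadjusted p under 0.05, again beside 1.67% and 18.5%. That 1 was Sqle, the squalene epoxidase of cholesterol synthesis, at −0.66 ± 0.29 (adjusted p = 0.253), while the cholesterol carrier Stard4 stood at 0.10 ± 0.15 (adjusted p = 0.783).

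Marker lists of cell types and lobule zones were set beside these values, and 0 of their genes passed in any comparison. At 1% wakame the median difference was 0.062 over 4 varying hepatocyte markers of 8, 0.042 over 3 Kupffer cell markers of 7, 0.067 over 2 endothelial markers of 6 and 0.21 over 5 stellate cell markers of 8. At 0.1% wakame, where SHP and Cyp7a1 lay highest, it was 0.50, 0.11, 0.089 and 0.17. Of the hepatocyte markers Cyp2e1 stood at 0.90 ± 0.35 at 0.1% wakame (unadjusted p = 0.0277, adjusted p = 0.370, limma). At the same dose Hnf4a stood at 0.23 ± 0.091 (unadjusted p = 0.0310, adjusted p = 0.379, limma). Tat stood there at 0.77 ± 0.48 (unadjusted p = 0.137, limma) and Apoa1 at −0.034 ± 0.14. At 1% wakame Tat stood at −1.04 ± 0.48, Cyp2e1 at 0.67 ± 0.35, Hnf4a at 0.08 ± 0.091 and Apoa1 at 0.05 ± 0.14. For 1% against 0.1% wakame Tat stood at −1.81 ± 0.48 (unadjusted p = 0.00333, adjusted p = 0.498, limma). The mean of the hepatocyte list ran from 11.17 to 11.67 in control, 11.62 to 12.11 in low and 11.00 to 11.81 in high livers. For the stellate list it ran from 8.21 to 8.58, 8.03 to 8.63 and 8.24 to 8.81.

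Cyp7a1 is known to be made mainly around the central vein, so the zone markers were listed too. The mean of 4 varying central vein markers of 6 ran from 8.85 to 9.99 in control livers. It ran from 9.42 to 9.93 in low and from 9.43 to 10.2 in high livers. The median difference of these markers from control was 0.43 at 1% and 0.31 at 0.1% wakame. Among them Glul, glutamine synthetase, stood at 0.77 ± 0.25 at 1% wakame (unadjusted p = 0.0110, adjusted p = 0.147, limma). For this Glul probe set high and control livers did not overlap, beside 11.3% of all varying probe sets. The second Glul probe set stood at 0.59 ± 0.24 at 1%, with overlap, Cyp1a2 at 0.79 ± 0.41, Oat at 0.09 ± 0.56 and Axin2 at −0.02 ± 0.18. Differences at 0.1% wakame were 1.06 ± 0.56 for Oat (unadjusted p = 0.0861, limma) and 0.30 ± 0.41 for Cyp1a2. The Glul probe sets stood there at 0.31 ± 0.25 and 0.17 ± 0.24, and Axin2 at −0.25 ± 0.18. The mean of 6 portal markers ran from 10.4 to 11.5 in control, 11.1 to 12.0 in low and 10.9 to 11.6 in high livers. The median difference of these markers from control was 0.17 at 1% and 0.21 at 0.1% wakame. Among them Pck1, which makes glucose precursors, stood at 0.73 ± 0.22 at 0.1% wakame (unadjusted p = 0.00622, adjusted p = 0.223, limma). Its low and control livers did not overlap, beside 5.86% of all varying probe sets. At 1% wakame it stood at 0.57 ± 0.22 (unadjusted p = 0.0238, adjusted p = 0.202, limma). Ass1 stood at −0.067 ± 0.19 at 0.1% and −0.25 ± 0.19 at 1% wakame. Of the 6 markers 5 lay higher and 1 lower at 0.1%, and 4 higher and 2 lower at 1%. The part of zone or cell makeup in the members' values was not tested.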

How the data were processed

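The authors deposited one table with a log2 value per probe set and array; the log2 scale was inferred from its range. The submitters' processing notes name R 2.7.2, and how background, normalization and summarisation were handled is not given in the sources used here. Per the labels, biotin-labelled cRNA was made from 100 ng of total RNA with a kit that copies from the 3-prime end. Gene symbols came from the platform annotation.

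Probe sets with an SD over 0.01 were fitted with limma 3.58.1 in R 4.3.3 (a mean per diet, all 12 arrays, variances trended on level), and p-values were adjusted by Benjamini-Hochberg over the 3240 probe sets. Rose and fell refer to an adjusted p under 0.05. The gene value is its brightest varying probe set. Correlations used 100000 permutations, two-sided, in numpy 2.4.6, with ranks from scipy 1.17.1. The scripts were tested on simulated data. The exact test of 4 against 4 arrays is two-sided and cannot give a p below 0.0286. No source says that arrays of one diet came from separate cages, and p-values measure the spread between these rats.

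The members, lists and SD limit were chosen with earlier results of these data known. Genes named outside the members were those of the 4 pathway lists with an adjusted p under 0.05, else the 2 of a list with the smallest p at 1% wakame, with Nr1h4, Hnf4a and the single marker genes added after values were seen. Alternatives were other probe set filters, quantile normalization, median centring, no variance trend, only the diets compared, a replicate block, the Gapdh covariate, exact permutation tests and leaving out each array. Values of single arrays rest on no detection call, so that precision is limited by the number of arrays.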

Additional observations from a re-analysis of the deposited data

How the results depend on the processing

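The count of members with an adjusted p under 0.05 was 0 in each comparison under every alternative run that could have passed a member (the exact permutation test could not), the 8 fits per comparison that left out 1 array included. In the fits that left out 1 array, the smallest adjusted p of a member ran from 0.0670 to 0.278 for 1% wakame against control. It ran from 0.194 to 0.523 for 0.1% against control and from 0.505 to 0.994 for 1% against 0.1%. The replicate block kept the count of members at 0 in all 3 comparisons but took the calls over all varying probe sets from 54 to 12 at 1% wakame, and those of Nr5a2, Nr1d1 and Onecut1 were not among them (adjusted p = 0.122, 0.0691 and 0.0611). The Nr5a2 call was also lost with an SD over 0.1 (adjusted p = 0.0520) and with only the diets compared (adjusted p = 0.0531). Arrays of the same number shared only that number, since their deviations from the diet means correlated at −0.12 to 0.092 and 2 of 12 correlated best with their own number. For 1% against control those calls numbered 9 with all probe sets, 41 with an SD over 0.1, 28 with only the diets compared and 4 with the Gapdh covariate.

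Signs turned for small differences only. With the Gapdh covariate Hsd3b7 stood at −0.24 for 1% wakame against control, and Acox2 at 0.19 and Cyp8b1 at −0.22 for 1% against 0.1%, where quantile normalization gave 0.028 for Acox2. With arrays left out in turn the 1% difference from control ran from −0.22 to 0.14 for Akr1d1, −0.081 to 0.85 for Cyp7a1, −0.38 to 0.042 for Cyp8b1 and −0.088 to 0.54 for Hsd3b7. The 0.1% difference of Akr1d1 ran from −0.10 to 0.19. For 1% against 0.1% the ranges were −0.12 to 0.14 for Acox2, −0.25 to 0.090 for Akr1d1, −0.13 to 0.28 for Cyp8b1 and −0.36 to 0.17 for Slc27a5. By Pearson r, the number of enzymes correlated with Nr0b2 after adjustment was 1 over the 12 arrays (Cyp27a1) and 0 with diet means subtracted. Without control 1 and control 4, Slc27a5 passed (permutation, adjusted p = 0.0154) and Cyp27a1 did not (adjusted p = 0.127). By rho no enzyme passed over the 12 arrays (permutation, adjusted p = 0.157 for Cyp27a1). The r for Hsd3b7 was −0.022 without control 1 and control 4. The causes were not tested.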

Other observations

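By a rule applied to all genes, the 3 genes whose signals followed each of SHP, Cyp7a1 and Cyp8b1 most closely over the 12 livers were named, out of 2300 other genes with a varying probe set. For SHP (Nr0b2) they were Ang, the ribonuclease angiogenin, at r = 0.883, Pigr, the receptor that carries polymeric immunoglobulin into bile, at r = 0.879, and Klf15, a fasting-responsive transcription factor, at r = 0.870. With diet means subtracted these were 0.768, 0.826 and 0.705. For Cyp7a1 they were Synrg (0.785), Tp53inp1 (0.755) and Ik (0.749), and with diet means subtracted 0.679, 0.553 and 0.631. For Cyp8b1 they were Dap at 0.857, Rassf6 at 0.761 and Klkb1, plasma prekallikrein, at 0.744, and with diet means subtracted 0.876, 0.755 and 0.807. All points share the 12 arrays and their processing, and these are descriptions of the highest of many values.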
